A study of Mus musculus with 12 samples.

Results

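The acute phase proteins are plasma proteins that the liver secretes in larger or smaller amounts during inflammation. Here 10 genes that encode members of the group or their close relatives were followed in the livers of 12 mice. They were the serum amyloid A genes Saa1, Saa2, Saa3 and Saa4, the orosomucoid genes Orm1 and Orm2, the haptoglobin gene Hp, the pentraxin genes Crp and Apcs, and the gene of the lipopolysaccharide-binding protein, Lbp. These genes were selected by name from the annotation of the arrays, which held 13 of their probe sets among 45101, and each gene was represented by its brightest probe set, with one shared with close relatives used only where no other existed. The C57BL/6 mice were 8 weeks old at the start and formed 3 groups of 4: mice fed a methionine- and choline-deficient diet rich in fat with 0.1% metformin mixed in (MCD+HF+Met), mice fed the same diet without metformin (MCD+HF), and mice fed normal chow (NC). All were fed for 8 weeks and the livers were labelled as taken in the fasting state, with 1 array per mouse. The diet served as a model of nonalcoholic steatohepatitis in animals without diabetes, and metformin is an antidiabetic drug. The arrays were Affymetrix oligonucleotide arrays, on which a probe set is a group of short probes read as 1 signal. A signal is a linear intensity that the authors scaled so that the average of each array was 100. All 10 genes had a mean signal of at least 20, the minimum for testing, and were among 11099 genes that passed it of 18193 on the arrays.

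In the acute phase response, cytokines of the interleukin-6 and interleukin-1 families reach the hepatocyte and act through the transcription factors STAT3, NF-kappaB and C/EBP. Positive acute phase genes are then transcribed more strongly and negative ones, such as albumin, less strongly. In the mouse, Saa1 and Saa2 are the strongly inducible serum amyloid A genes of the liver, Saa4 is expressed constitutively, and Saa3 is made in macrophages, adipocytes and other cells as well as in the liver. Serum amyloid P component, the product of Apcs, is the main acute phase pentraxin of the mouse, whereas in humans this place is taken by C-reactive protein, the product of Crp. Haptoglobin binds free haemoglobin, the orosomucoids are carrier glycoproteins of plasma, and the lipopolysaccharide-binding protein passes bacterial endotoxin to CD14.

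The serum amyloid A genes lie side by side on chromosome 7, Crp and Apcs are neighbours on chromosome 1, and Orm1 and Orm2 lie in 1 cluster on chromosome 4. The 250 bases before the start of the gene are printed because these neighbours behaved differently in the livers, as described below: Saa1, Saa2 and Saa4 were lower on the MCD+HF diet while Saa3 did not pass the test, and Crp was lower while Apcs was higher. They were taken from RefSeq on GRCm38.p6 and run 5′ to 3′ on the strand of the gene. The intervals are chr7:46742981-46743230 on the minus strand for Saa1, chr7:46751583-46751832 on the plus strand for Saa2, chr7:46732604-46732853 on the minus strand for Saa4, chr7:46715677-46715926 on the minus strand for Saa3, chr1:172697806-172698055 on the plus strand for Crp, and chr1:172895055-172895304 on the minus strand for Apcs. Capitals mark the letters TTNNGNAA on either strand, a loose form of the C/EBP motif, with overlapping matches allowed.
Saa1: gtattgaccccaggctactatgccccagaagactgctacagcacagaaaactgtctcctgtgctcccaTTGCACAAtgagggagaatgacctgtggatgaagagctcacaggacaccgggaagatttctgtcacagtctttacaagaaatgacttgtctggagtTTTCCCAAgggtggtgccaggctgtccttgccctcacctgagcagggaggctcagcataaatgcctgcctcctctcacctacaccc
Saa2: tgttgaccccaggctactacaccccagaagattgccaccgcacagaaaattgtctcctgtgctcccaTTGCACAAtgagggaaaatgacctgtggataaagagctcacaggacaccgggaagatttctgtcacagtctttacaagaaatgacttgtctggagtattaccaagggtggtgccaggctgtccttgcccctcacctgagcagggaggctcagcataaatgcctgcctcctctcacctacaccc
Saa4: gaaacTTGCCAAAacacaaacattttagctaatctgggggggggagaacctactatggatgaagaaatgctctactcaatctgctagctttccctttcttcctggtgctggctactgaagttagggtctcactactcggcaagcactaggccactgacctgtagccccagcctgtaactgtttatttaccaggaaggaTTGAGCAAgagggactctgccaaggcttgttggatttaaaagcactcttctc
Saa3: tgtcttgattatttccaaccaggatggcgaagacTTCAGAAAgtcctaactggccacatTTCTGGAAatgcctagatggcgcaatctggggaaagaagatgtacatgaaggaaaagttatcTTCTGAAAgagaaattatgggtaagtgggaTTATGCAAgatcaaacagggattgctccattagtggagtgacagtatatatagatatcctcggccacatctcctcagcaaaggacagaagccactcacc
Crp: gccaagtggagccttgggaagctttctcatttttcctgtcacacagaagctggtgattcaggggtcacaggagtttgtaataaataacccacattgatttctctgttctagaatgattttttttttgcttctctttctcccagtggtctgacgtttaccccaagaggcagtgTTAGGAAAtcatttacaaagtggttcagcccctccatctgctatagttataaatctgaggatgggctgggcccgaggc
Apcs: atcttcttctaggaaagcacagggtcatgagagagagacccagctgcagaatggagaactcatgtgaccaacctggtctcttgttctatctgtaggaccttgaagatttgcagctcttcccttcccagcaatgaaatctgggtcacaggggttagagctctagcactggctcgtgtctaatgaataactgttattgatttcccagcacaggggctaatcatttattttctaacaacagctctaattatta

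The stretches of Saa1 and Saa2 were identical at 238 of 251 aligned columns (94.8%), while those of Crp and Apcs were identical at 139 of 279 (49.8%), within the range of 46.7% to 54.2% of all pairs other than Saa1 and Saa2. Of the 7 members with a promoter entry, 6 held the C/EBP letters, as did 36.8% of 32851 mouse promoters of this length, and Apcs held none. The letters TTCNNNGAA, for STAT3, were found in 1 of the 7 members, Apcs, and in 7.02% of promoters. For NF-kappaB, GGG and CC separated by any 5 bases were found in 4 of the 7 and in 45.8% of promoters, again on either strand. Such matches describe the letters only, and Orm1, Hp and Lbp had no entry in the table used.

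Most acute phase transcripts were lower in MCD+HF than in NC livers. Of the 10 genes, 7 were lower and 1, Apcs, was higher at an adjusted p under 0.05 (limma on log2(signal + 10), Benjamini-Hochberg adjustment over 22832 probe sets). This diet changed 43.8% of all probe sets tested, with 18.4% lower and 25.4% higher. With 1 probe set per gene, as for the members, 48.2% of 11099 genes were called. The median difference, MCD+HF minus NC, was -1.31 for the 10 genes and 0.06 for all probe sets on the log2 scale. For the same 7 genes every MCD+HF mouse was below every NC mouse, which held for 17.6% of all probe sets, and the groups overlapped for Saa3, Orm2 and Apcs. With metformin, 1 of the 10 genes, Lbp, differed between MCD+HF+Met and MCD+HF livers, where 3.44% of all probe sets and 3.97% of all genes tested did.

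**Figure D1:**
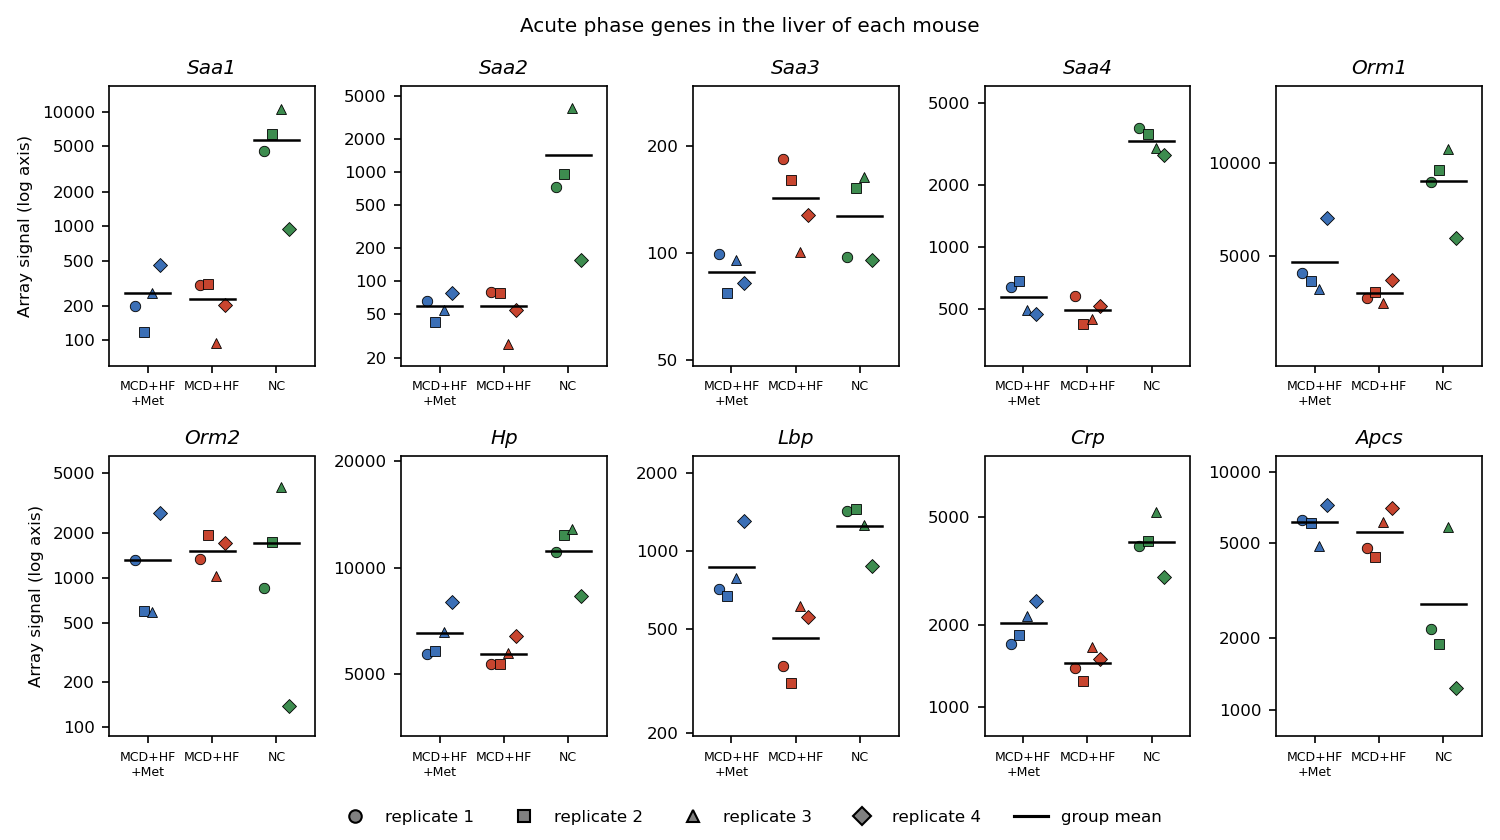
Array signal (log axis, different range in each panel) of the 10 acute phase genes in MCD+HF+Met, MCD+HF and NC livers; each symbol is 1 mouse, its shape gives the replicate number and the line is the group mean of 4 mice. Saa1, Saa2, Saa4, Orm1, Hp, Lbp and Crp lie lower in all 4 MCD+HF mice than in any NC mouse, and NC replicate 4 is the lowest NC mouse in every panel.

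Among the serum amyloid A genes, Saa1 showed the largest difference. Its signal was 199, 117, 259.5 and 452 in MCD+HF+Met mice 1 to 4, 302, 313, 95.4 and 204 in MCD+HF mice, and 4597, 6462, 10596 and 947 in NC mice. Both MCD+HF groups thus lay in 1 low range, and the lowest NC mouse was above all 8 of them. The mean was 229 ± 102 in MCD+HF livers and 5650 ± 4014 in NC livers (SD, n = 4 each), 24.7-fold lower in MCD+HF, with a log2 difference of -4.26 (standard error 0.58, adjusted p = 2.3e-05). Without NC replicate 4 the log2 difference was -4.96.

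Saa2 is so similar to Saa1 that the probes may read both transcripts. Its signal was 65.9, 42.3, 54.3 and 77.5 in MCD+HF+Met mice, 79.4, 78.4, 27.0 and 54.3 in MCD+HF mice, and 722, 962, 3825 and 158 in NC mice. The NC mice spread 24.2-fold from the lowest to the highest but all stood above the other groups. The log2 difference between MCD+HF and NC was -3.64 (standard error 0.62, adjusted p = 1.9e-04), and it was -2.90 without NC replicate 3 and -4.41 without NC replicate 4. The single probe set for Saa2 is of a kind that can bind related transcripts. A further probe set named Saa1 is annotated with the same transcript as that of Saa2, so the pair cannot be separated with certainty. It averaged 195 ± 77.1 in MCD+HF and 4758 ± 4023 in NC livers.

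Saa4, which encodes the constitutive serum amyloid A of plasma high-density lipoprotein, differed more evenly from mouse to mouse. Its signal was 646, 685, 496 and 477 in MCD+HF+Met mice, 580.3, 427, 452 and 520.2 in MCD+HF mice, and 3764, 3527, 3011 and 2784 in NC mice. The gap between the diets was wide against the spread within each, with a mean 6.61-fold lower in MCD+HF than in NC livers (log2 difference -2.70, standard error 0.14, adjusted p = 8.5e-10). A second probe set of Saa4 averaged 134 ± 30.2 in MCD+HF and 1104 ± 213 in NC livers.

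Saa3 did not share this pattern. Its signal was 99.2, 77.2, 95.3 and 82.6 in MCD+HF+Met mice, 184, 160.3, 100.5 and 128 in MCD+HF mice, and 97.7, 152, 163 and 95.5 in NC mice. MCD+HF and NC mice overlapped and their log2 difference of 0.16 did not pass the test (95% interval -0.24 to 0.57, adjusted p = 0.518). Every MCD+HF+Met mouse was below every MCD+HF mouse, although the log2 difference of -0.61 between them missed the threshold (adjusted p = 0.0928). Such a complete separation downward held for 6.41% of all probe sets.

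The pentraxin genes Crp and Apcs moved in opposite directions on the diet. Crp had signals of 1703, 1841, 2163 and 2444 in MCD+HF+Met mice, 1389, 1244, 1656 and 1495 in MCD+HF mice, and 3919, 4074, 5211 and 2989.7 in NC mice. The 3 groups did not overlap, with NC highest and MCD+HF lowest. The mean of Crp was 1446 ± 174 in MCD+HF and 4048 ± 911 in NC livers (SD, n = 4 each; log2 difference -1.46, standard error 0.15, adjusted p = 1.4e-06).

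Apcs read 6279.6, 6089.8, 4886 and 7233 in MCD+HF+Met mice, 4766, 4395, 6160.5 and 7032 in MCD+HF mice, and 2190.1, 1886, 5854 and 1240.1 in NC mice. Of the NC mice, 3 were below every mouse fed the MCD+HF diet, with or without metformin, whereas NC replicate 3 lay within their range. The log2 difference of Apcs between MCD+HF and NC livers was 1.23 (standard error 0.32, adjusted p = 0.00616), and the ratio of the means was 2.00. With the methods' t-test, run here with Benjamini-Hochberg adjustment, the adjusted p was 0.102, so this call depended on the test. Apcs did pass the methods' rule of over 1.5-fold with an unadjusted p under 0.05.

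Orm1, the more evenly expressed orosomucoid gene in these livers, was lower on the diet and Orm2 was not called. Orm1 had signals of 4408, 4144, 3906 and 6651 in MCD+HF+Met mice, 3648, 3824, 3509 and 4159 in MCD+HF mice, and 8717, 9496, 11162 and 5732 in NC mice. Its log2 difference between MCD+HF and NC was -1.17 (standard error 0.18, adjusted p = 8.0e-05), which quantile normalization between arrays brought to -0.60. Orm2 read 1318, 596, 589.7 and 2721 in MCD+HF+Met mice, 1332, 1925, 1032 and 1713 in MCD+HF mice, and 856, 1742, 4040.0 and 139 in NC mice. The NC mice alone spread 29.1-fold and covered both other groups, so that a log2 difference between MCD+HF and NC of 0.59 had a 95% interval of -0.95 to 2.12 (adjusted p = 0.538). Leaving out NC replicate 4 turned it to -0.32.

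Hp had signals of 5703, 5821, 6603 and 8009.5 in MCD+HF+Met mice, 5344, 5350.5, 5761 and 6428 in MCD+HF mice, and 11092, 12377, 12912 and 8316 in NC mice. All 8 mice on the MCD+HF diets were below the 4 NC mice. The log2 difference of MCD+HF from NC was -0.95 (standard error 0.13, adjusted p = 3.4e-05). After quantile normalization between arrays, the log2 difference of Hp was -0.21 and was no longer called (adjusted p = 0.0581).

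For Lbp, the MCD+HF livers were the lowest and the MCD+HF+Met livers lay in between. Its signal was 715, 672, 792 and 1310.2 in MCD+HF+Met mice, 361, 309.9, 618 and 560.3 in MCD+HF mice, and 1435, 1451, 1269.5 and 876 in NC mice. The MCD+HF mice were below all others, while the MCD+HF+Met and NC mice overlapped because MCD+HF+Met replicate 4 was above 2 of the NC mice. The log2 difference between MCD+HF and NC was -1.45 (standard error 0.24, adjusted p = 1.3e-04). A second Lbp probe set gave a smaller difference of -0.85 (adjusted p = 0.0357), and its MCD+HF and NC mice overlapped.

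**Figure D2:**
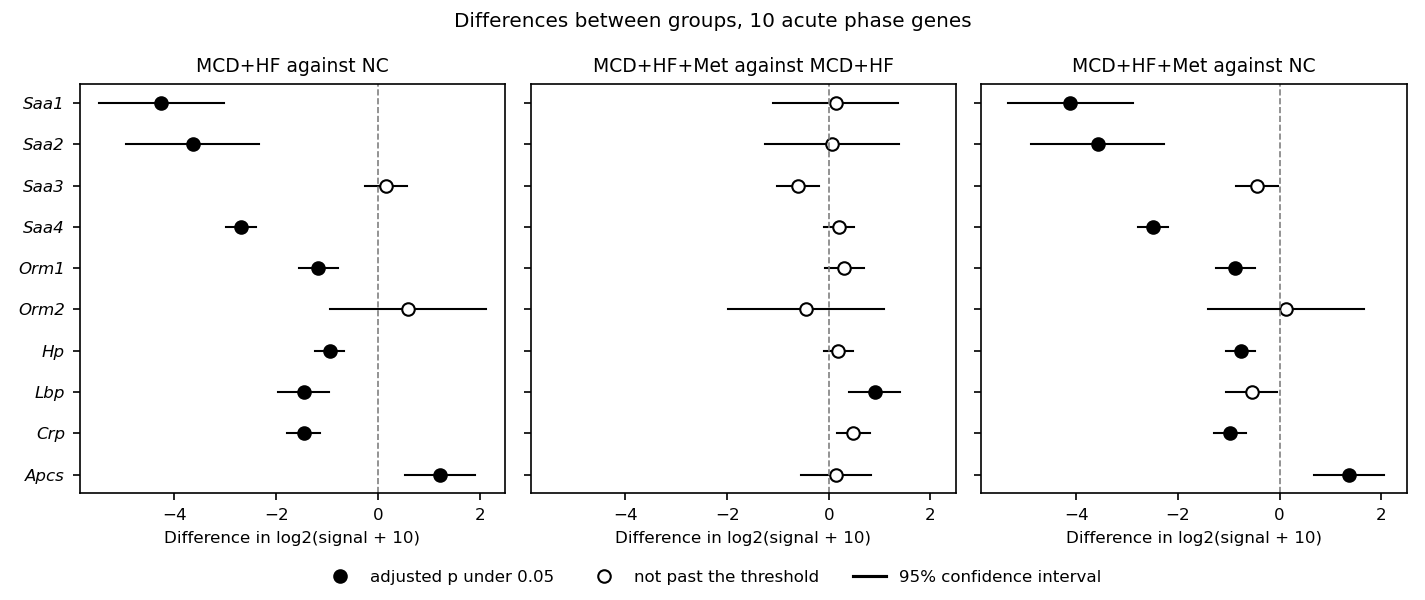
Differences in log2(signal + 10) between groups for the 10 acute phase genes, with 95% confidence intervals; the first-named group of each panel minus the second, with filled symbols at an adjusted p under 0.05 (limma, 4 mice per group). The diet panel ranges from Saa1 at -4.26 to Apcs at 1.23, while in the metformin panel Lbp at 0.91 is the filled symbol.

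Whether metformin altered the acute phase genes on the MCD+HF diet was asked by comparing MCD+HF+Met with MCD+HF livers. Lbp was 1.89-fold higher in MCD+HF+Met livers, at 873 ± 296 against 462 ± 150 in MCD+HF livers (SD, n = 4 each; log2 difference 0.91, standard error 0.24, adjusted p = 0.047), where 1.24% of all probe sets were higher and 2.21% lower. This call was narrow. It was lost when MCD+HF replicate 1 or 2 or any single MCD+HF+Met mouse was left out, with adjusted p-values up to 0.144, and also with an offset of 0 (0.0586), with no minimum signal (0.082), with a robust variance (0.0741), with only the groups compared (0.0643) and with the methods' t-test (0.233). The second Lbp probe set gave a log2 difference of 0.73 in the same direction (adjusted p = 0.211). Lbp also belongs to a pathway that the study picked from these same arrays, so its call is not independent of that choice.

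Crp was the other gene for which every MCD+HF+Met mouse stood above every MCD+HF mouse, as held for 5.35% of all probe sets. Its mean was 2038 ± 333 in MCD+HF+Met and 1446 ± 174 in MCD+HF livers, with a log2 difference of 0.49 (95% interval 0.17 to 0.81) that missed the threshold (adjusted p = 0.0883). The remaining 7 members overlapped between these groups, with log2 differences between -0.46 for Orm2 and 0.30 for Orm1. Their intervals varied in width. Hp was limited to -0.10 to 0.47, whereas Saa1 spanned -1.09 to 1.37 and Orm2 spanned -1.99 to 1.08, so that changes of more than 2-fold in these remained possible. The median difference of the 10 genes was 0.16, and that of all probe sets was -0.02.

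Compared with normal chow, livers of MCD+HF+Met mice had lower Saa1 (log2 difference -4.12), Saa2 (-3.58), Saa4 (-2.49), Crp (-0.97), Orm1 (-0.87) and Hp (-0.77), and higher Apcs (1.37, adjusted p = 0.00332). These were 7 of 10 genes, where 39.7% of all probe sets were called, 17.5% lower and 22.2% higher, and 44.2% of all genes tested. Every MCD+HF+Met mouse was below every NC mouse for 5 of them, Saa1, Saa2, Saa4, Crp and Hp, as for 15.7% of all probe sets. The comparison shares its NC mice with that of MCD+HF against NC, so the 2 are not independent. Lbp, with a log2 difference of -0.55, did not pass the test (adjusted p = 0.0776), although it did when MCD+HF+Met replicate 4 (-0.76, adjusted p = 0.0124) or NC replicate 4 (-0.71, adjusted p = 0.0292) was left out. Saa3, with a log2 difference of -0.44 (adjusted p = 0.0772), passed without NC replicate 1 (-0.55) or NC replicate 4 (-0.56) and after quantile normalization (-0.51, adjusted p = 0.0427). Orm1 and Hp were not called after quantile normalization (adjusted p = 0.0543 and 0.13), nor were Orm1 and Apcs with the methods' t-test (adjusted p = 0.0567 and 0.0825). Both Orm1 and Apcs passed the methods' rule, which takes an unadjusted p. In mean log2 signal, 7 of the 10 genes were ordered NC highest, MCD+HF+Met next and MCD+HF lowest. The step between the lower 2 groups passed the test only for Lbp.

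The mice of a group differed from one another by more in some of these genes than in most transcripts. In NC mice the standard deviation of log2(signal + 10) was 2.03 for Orm2, 1.85 for Saa2, 1.5 for Saa1 and 0.94 for Apcs, against a median of 0.21 over all probe sets, while that of Saa4 was 0.20. In MCD+HF+Met mice it was 1.05 for Orm2 and 0.77 for Saa1, against a median of 0.20. In MCD+HF mice it was 0.75 for Saa1 and 0.10 for Orm1, against 0.18. Saa1 and Orm2 thus varied more than a typical transcript in every group, whereas Saa4 varied about as much as one.

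In the NC and MCD+HF+Met groups the variation ran largely in the same mice from gene to gene. NC replicate 4 had the lowest NC signal for all 10 genes, and NC replicate 3 the highest for 8 of 10, the exceptions being Saa4 and Lbp. MCD+HF+Met replicate 4 had the highest signal of its group for 8 of 10, the exceptions being Saa3 and Saa4. In the MCD+HF group no mouse was highest for more than 3. Of the 45 pairs of genes, 28 shared their highest mouse in the MCD+HF+Met group, 8 in the MCD+HF group and 28 in the NC group. Both counts of 28 follow from the counts of 8 of 10 and add nothing to them. How often NC replicates 3 and 4 and MCD+HF+Met replicate 4 were extreme over all probe sets was not computed. The pattern may thus not be particular to these genes. The 8 hepatocyte markers summed to 65350 and 63550 in NC replicates 3 and 4, within the NC range of 60670 to 69830. Their neutrophil markers summed to 145 and 137, in the lower part of the NC range of 137 to 264. Their macrophage and Kupffer cell markers summed to 4797 and 4348, and replicate 4 was the lowest NC mouse. In MCD+HF+Met replicate 4 the hepatocyte sum of 46440 and the macrophage and Kupffer cell sum of 5815 were the highest of its group. Its stellate cell sum of 1779 and cholangiocyte sum of 182 were the lowest of that group, and its neutrophil sum of 573 was within the group's range. The part of cell composition in this variation was not tested. The ratio of 3′ to 5′ signal of Actb, a measure of RNA integrity that is lower in less degraded RNA, differed between these mice. It was 1.62 in MCD+HF+Met replicate 4, the lowest of its group (up to 1.86), and among NC mice it was lowest in replicate 3 (1.54) and highest in replicate 4 (1.88). The same ratio of Gapdh was 0.704 in MCD+HF+Met replicate 4, also the lowest of its group, and 0.715 and 0.717 in NC replicates 3 and 4. The mice with high acute phase signals in these groups thus had the lowest Actb ratios, and the part of RNA integrity in this variation was not tested. By Dixon's test none of the 30 sets of 4 mice, 10 genes in 3 groups, held an outlier. With NC replicates 3 and 4 both left out, the diet still gave 7 lower and 1 higher of the 10 genes.

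**Figure D3:**
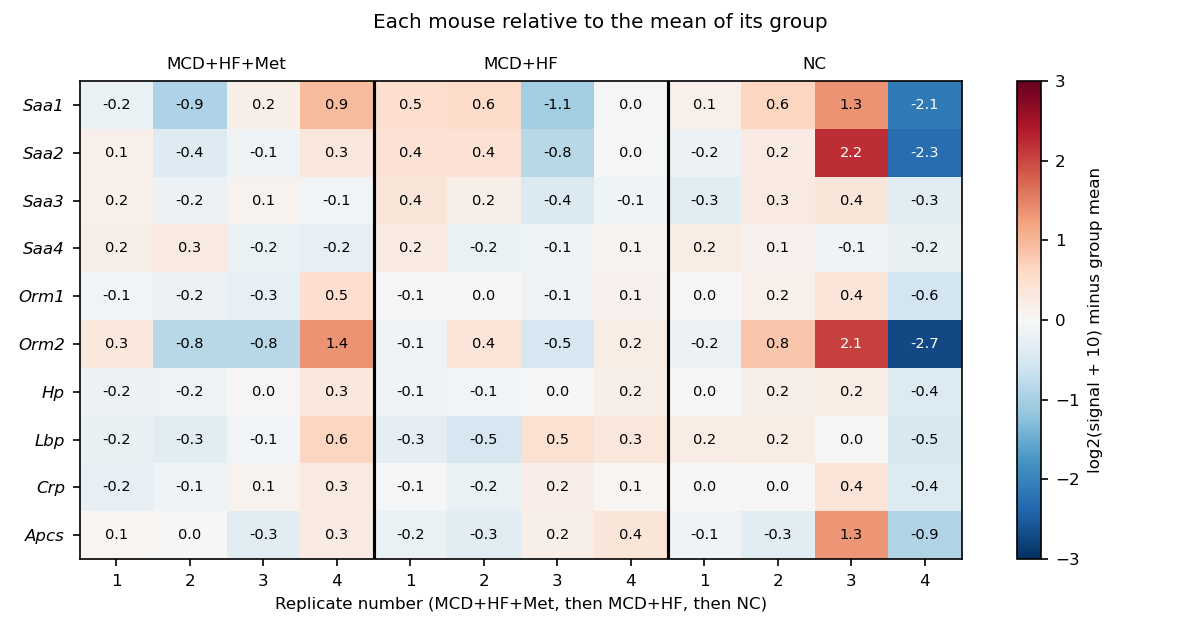
Deviation of each mouse from the mean of its own group in log2(signal + 10), for the 10 acute phase genes (rows) in MCD+HF+Met, MCD+HF and NC mice (columns, by replicate number); red is above and blue is below the group mean. NC replicate 4 is below the mean in all 10 rows, NC replicate 3 is above it in 9, and MCD+HF+Met replicate 4 is above it in 8.

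The transcripts that ran most closely with each member over the 12 arrays were searched among 11098 other genes. These correlations largely follow the difference between NC and the other groups and are given as a description. Saa1 and Saa2 were each other's closest gene (Pearson r = 0.978). Orm1 was closest to the fibrinogen beta chain gene Fgb and to Hp (both r = 0.974). Hp was closest to Nedd8 (r = 0.992), a ubiquitin-like protein, followed by Fgb and the haemopexin gene Hpx (both r = 0.982). Saa4 was closest to Nat8f1 (r = 0.995), Nudt7 (r = 0.991) and Hsd3b5 (r = 0.990). Crp was closest to Ndufa1 (r = 0.986), a subunit of mitochondrial complex I. Apcs, in contrast, was closest to Asns (r = 0.980), the asparagine synthetase, and Lbp to Gldc (r = 0.946), the glycine decarboxylase. Saa3 ran with Ctnnb1 (r = 0.919) and Fabp5 (r = 0.898), and the closest gene to Orm2 was Surf2 (r = 0.896).

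Other positive acute phase genes were mostly lower on the MCD+HF diet as well. Of 15 tested, 9 were lower and 2 higher in MCD+HF than in NC livers, with a median log2 difference of -0.74. Among all probe sets, 18.4% were lower and 25.4% higher. Lower genes included Itih4, an inter-alpha-trypsin inhibitor heavy chain (-1.59, adjusted p = 3.8e-06), the fibrinogen genes Fga (-1.33), Fgb (-1.45) and Fgg (-1.32), and Serpina3n, a serine protease inhibitor (-1.43, adjusted p = 0.00123). The higher 2 were Lcn2, the siderophore-binding lipocalin 2 (3.06, adjusted p = 0.0011), and Il1rn, the antagonist of the interleukin-1 receptor (0.78, adjusted p = 0.00801). The signal of Lcn2 was 1833 to 3342 in MCD+HF mice and 72.3 to 1389 in NC mice, so it and Saa1 moved in opposite directions in the same livers. With metformin, Agt, the angiotensinogen gene, was higher (0.43, adjusted p = 0.048), and the other 14 genes were not called, while 8 of the 15 had an unadjusted p under 0.05. Agt, Serpina3n (0.95) and Hamp, the hepcidin gene (-1.14), were among these 8 and did not overlap between MCD+HF+Met and MCD+HF mice. Such a separation held upward for 5.35% and downward for 6.41% of all probe sets. For an unadjusted p under 0.05 the share of all probe sets was not computed, here or for the lists below. Against NC, 7 of the 15 were lower and 3 higher in MCD+HF+Met livers, where 17.5% of all probe sets were lower and 22.2% higher.

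The negative acute phase proteins were also lower on the diet. All 6 tested fell in MCD+HF relative to NC livers, among them Alb, the albumin gene (-1.02), Ttr, that of transthyretin (-0.99), Apoa1, that of apolipoprotein A-I (-1.02), and Serpina6, that of corticosteroid-binding globulin (-1.65). Genes of both positive and negative acute phase proteins were thus lower together on the deposited scale. Alb, Ttr, Apoa1 and the fibrinogen genes were brighter on average than Hp, whose difference was no longer called after quantile normalization. Their own differences after quantile normalization are not given here. None of the 6 was called with metformin by limma or by the methods' t-test, while 2 had an unadjusted p under 0.05; the smallest adjusted p was 0.107 for Ahsg, the fetuin-A gene. Of the 6, 5 were lower in MCD+HF+Met than in NC livers, as were 17.5% of all probe sets.

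Upstream of these genes, 5 of the 7 cytokine ligands on the arrays were too dim to be tested: Il6, Tnf, Lif, Osm and Il11. The gene of interleukin-1 beta, Il1b, was lower on the diet (-0.54, adjusted p = 0.0395), with overlapping groups, a call that was lost with no minimum signal and with the methods' t-test, and Il1a was not called. Among 9 receptor and kinase genes, 3 were lower and 3 higher in MCD+HF than in NC livers, where 48.2% of all genes tested were called. Lifr, the receptor of leukaemia inhibitory factor, read 126 to 132 in MCD+HF mice and 1363 to 2186 in NC mice (-3.74, adjusted p = 1.9e-11). Il1rap, the accessory chain of the interleukin-1 receptor, read 248 to 334 in MCD+HF mice and 1915 to 2057 in NC mice (-2.81, adjusted p = 3.8e-11). Il6ra, the ligand-binding chain of the interleukin-6 receptor, was also lower (-0.76, adjusted p = 0.00715), whereas its signalling chain Il6st was not called (0.05, adjusted p = 0.782). The higher receptors were Osmr, that of oncostatin M (1.08), and Il22ra1, that of interleukin-22 (0.96), together with the kinase gene Jak1 (0.44). Lifr was higher with metformin, at 160.1 to 209 in MCD+HF+Met mice against 126 to 132 in MCD+HF mice (0.52, adjusted p = 0.0462), a level still far below that of NC mice (-3.22).

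Among 12 transcription factor and feedback genes, 5 were lower and 2 higher in MCD+HF than in NC livers, where 48.2% of all genes tested were called. Cebpa, encoding C/EBP alpha, was lower (-1.06, adjusted p = 0.00192), as was the hepatocyte nuclear factor gene Hnf4a (-0.84, adjusted p = 1.7e-05). Cebpd, encoding C/EBP delta, was higher (0.98, adjusted p = 3.3e-04), and so was Socs2, a suppressor of cytokine signalling (2.11, adjusted p = 7.7e-06). Neither Stat3 (0.19, adjusted p = 0.281) nor Socs3 (0.31, adjusted p = 0.345), a feedback gene that interleukin-6 induces, was called. With metformin none of the 12 was called by limma or by the methods' t-test, while 5 had an unadjusted p under 0.05; the smallest adjusted p was 0.0805 for Nfkbia, the inhibitor of NF-kappaB.

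Proteins that act together with the members were examined in the same way. The endotoxin co-receptor gene Cd14, to which the lipopolysaccharide-binding protein hands its ligand, was higher on the diet while Lbp was lower. Cd14 read 251 to 301 in MCD+HF mice and 42.5 to 82.3 in NC mice (1.91, adjusted p = 1.2e-05), and Myd88, an adaptor of Toll-like receptors, was higher by 0.44 (adjusted p = 0.00412). Of the haemoglobin and haem clearance genes, Hpx (-0.92), the haptoglobin-haemoglobin receptor gene Cd163 (-1.61) and the haemopexin receptor gene Lrp1 (-0.45) were lower in MCD+HF than in NC livers, like Hp, whereas Hmox1, the inducible haem oxygenase, was higher (2.11, adjusted p = 5.1e-08). Hmox1 was lower with metformin, at 233 ± 13.2 in MCD+HF+Met and 409 ± 108 in MCD+HF livers (log2 difference -0.75, adjusted p = 0.0179). Fcer1g, the shared signalling chain of the Fc receptors that bind pentraxins, was higher on the diet (0.86, adjusted p = 5.7e-04) and lower with metformin (-0.67, adjusted p = 0.0384). With metformin, the calls of Agt, Lifr and Fcer1g were lost with no minimum signal. Those of all 4, Hmox1 included, were lost with the methods' t-test after Benjamini-Hochberg adjustment. That adjusted test called only 8 of 22832 probe sets with metformin, so losing a call there says little about a single gene. The study itself used an unadjusted p under 0.05 with over 1.5-fold, among probe sets that its software had called increased or decreased. It listed Hmox1 as lower with metformin. Apoa1 was the 1 of 4 serum amyloid A partners that was called on the diet, and it was lower.

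**Figure D4:**
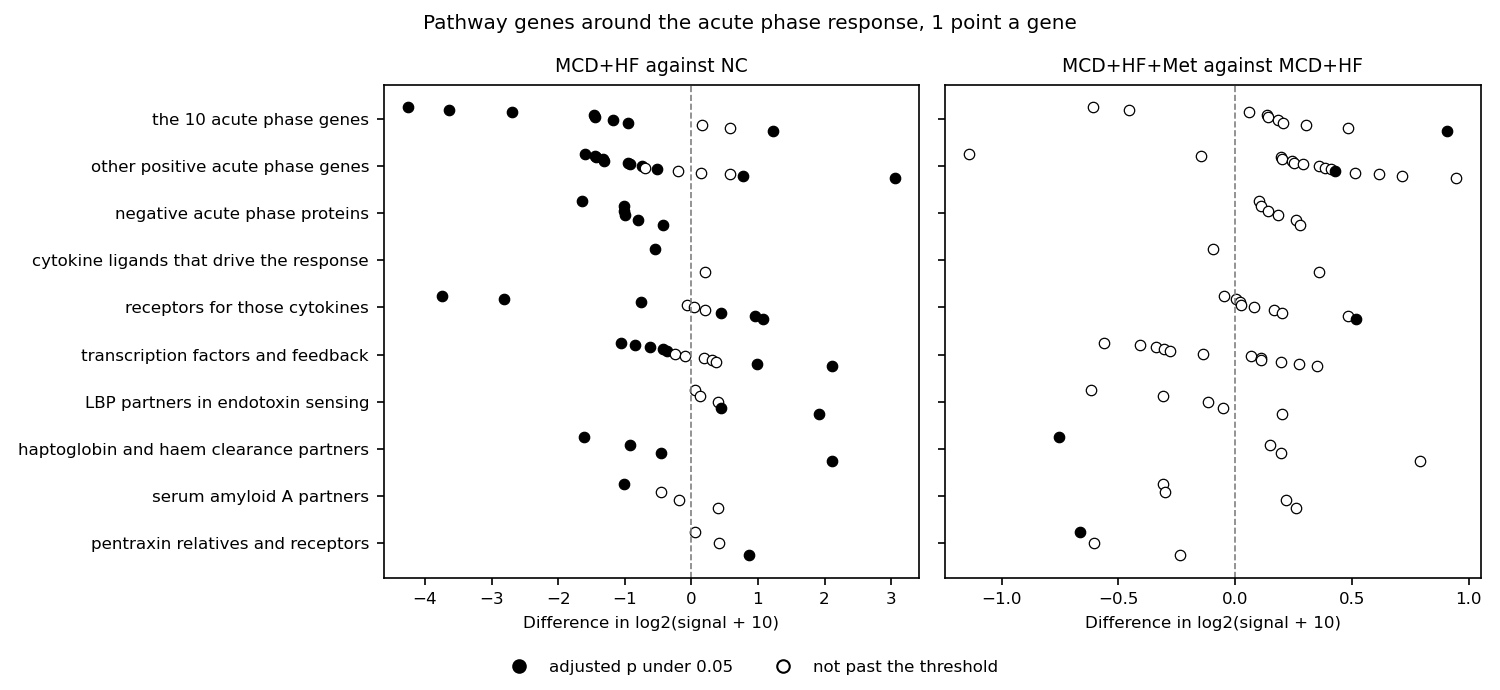
Differences in log2(signal + 10) for the 10 acute phase genes and for lists of related genes, 1 point per gene, in MCD+HF against NC and in MCD+HF+Met against MCD+HF; filled points had an adjusted p under 0.05 by limma and the horizontal scales differ. In the diet panel 9 of 15 other positive acute phase genes and 6 of 6 negative ones are filled to the left of 0, and in the metformin panel 5 points are filled, those of Lbp, Agt, Lifr, Hmox1 and Fcer1g.

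The livers held the markers of their label, and these markers moved with the diet too. The 8 hepatocyte markers, all above the minimum signal, summed to 35210 to 46440 in MCD+HF+Met mice, 32690 to 42320 in MCD+HF mice and 60670 to 69830 in NC mice, and 6 of the 8 were lower in MCD+HF than in NC livers. In whole liver, fewer cells of a type and less RNA per cell cannot be told apart. The 10 macrophage and Kupffer cell markers summed to 3319 to 5815 in MCD+HF+Met mice, 6354 to 8214 in MCD+HF mice and 4348 to 5514 in NC mice. They were split on the diet, with 5 higher, 2 lower and 3 not called in MCD+HF against NC. With metformin 3 were lower and 7 not called, and in MCD+HF+Met against NC 2 were higher and 3 lower. The 8 neutrophil markers on the arrays, of which 5 were dim, summed to 256 to 580.1 in MCD+HF+Met mice, 265 to 471 in MCD+HF mice and 137 to 264 in NC mice. Markers of stellate cells (5 of 6) and cholangiocytes (4 of 4 tested) were higher in MCD+HF than in NC livers. Among all probe sets, 25.4% were higher and 18.4% lower on the diet, and 1.24% higher and 2.21% lower with metformin. In MCD+HF+Met against NC, 22.2% of all probe sets were higher and 17.5% lower. All 6 lymphocyte markers and all 3 adipocyte markers on the arrays were dim, among them Adipoq, the adiponectin gene. The median log2 difference of MCD+HF from NC was -0.75 for the hepatocyte markers and -1.31 for the 10 acute phase genes. The part of these shifts in the acute phase differences was not tested. The ratio of 3′ to 5′ signal of Actb was 1.74 ± 0.11 in MCD+HF+Met, 1.54 ± 0.07 in MCD+HF and 1.73 ± 0.14 in NC livers (SD, n = 4 each). Arrays of the same group correlated at 0.971 to 0.988 across probe sets.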

How the data were processed

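Liver RNA of 12 mice (3 groups of 4, taken from the labels) was hybridised by the authors to Affymetrix arrays, 1 per mouse. The deposited values are linear signal intensities per probe set, which the authors obtained with GCOS and scaled to an average of 100 per array; after removal of 2% in each tail every array averaged 100.0. The genome build was not given in the sources used here. The 64 control probe sets were left out, log2(signal + 10) was computed without further normalization, and 22832 of 45101 probe sets, those averaging 20 or more over the arrays, were kept. Adding 10 before taking log2 understates differences of dim probe sets. A single limma model (version 3.58.1, R 4.3.3; lmFit and eBayes with a variance trend) gave the 3 comparisons, with Benjamini-Hochberg adjustment over all probe sets kept and a threshold of 0.05. Spread between mice underlies every p-value, and precision is limited by the few arrays. Symbols came from the platform annotation, updated through RefSeq identifiers for 34741 of 34945 probe sets with a single symbol; a gene was its brightest probe set. All 10 members were named, and from each related list the genes called with the largest differences. Some genes of these lists were not analysed here. The members and the lists were chosen with earlier results of these data known. Alternatives were other offsets (0 and 32), minimum signals (none and 50), quantile normalization, a robust variance, blocking on the replicate number, a fit of only the groups compared, the methods' t-test, other probe sets and each mouse left out in turn; leaving out NC replicates 3 and 4 together was added after seeing the data. The methods' t-test was run here with Benjamini-Hochberg adjustment, whereas the study used an unadjusted p under 0.05. The methods' rule of over 1.5-fold with an unadjusted p under 0.05 was applied here without the change calls that the study also required. The limma test was checked on simulated data with independent noise for each probe set. For MCD+HF+Met against MCD+HF it called 32.8% of 1.5-fold, 85.1% of 2-fold and 100% of 4-fold changes, so smaller changes can be missed. Promoters were read from RefSeq tables of GRCm38.p6 and motifs were searched on both strands. Plots were made in Python 3.11.15 (matplotlib 3.10.9).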

Additional observations from a re-analysis of the deposited data

How the results depend on the processing

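The count of acute phase genes called on the diet was 8 or 7 under every alternative run, with Hp lost after quantile normalization and Apcs with the methods' t-test, and it was 8 whichever mouse was left out. The count with metformin moved from 1 to 0 with an offset of 0, with no minimum signal, with a robust variance, with only the groups compared and with the methods' t-test, and to 2 by the methods' rule of over 1.5-fold with an unadjusted p under 0.05, which added Saa3. With each mouse left out it was 0 to 1, and Lbp stayed called only without MCD+HF replicate 3 or 4. The replicate number as a block gave 0 genes with metformin (Lbp, adjusted p = 0.065) and changed no other member's call; replicate numbers did not pair the mice, with correlations of deviations from -0.13 to 0.25. For MCD+HF+Met against NC the count ranged from 5 with the methods' t-test to 9 without NC replicate 4. Sign changes were limited to values that were not called. For Saa1 with metformin the log2 difference was -0.085 on its other probe set and -0.21 to 0.44 with a mouse left out, below 0 without MCD+HF replicate 3 or MCD+HF+Met replicate 4; leaving out the same mice turned Saa2, which ranged from -0.21 to 0.21. Orm2 on the diet ranged from -0.32 to 1.27 and was below 0 without NC replicate 4; in MCD+HF+Met against NC it ranged from -0.77 to 0.82, was below 0 without NC replicate 4 or MCD+HF+Met replicate 4, and was -0.20 without NC replicates 3 and 4. The cause of these changes was not tested. Over all probe sets, the 786 called with metformin became 476 with no minimum signal, 254 without MCD+HF replicate 2, 297 when MCD+HF+Met replicate 2 was dropped and 8 by the methods' t-test; with no minimum signal Agt, Lifr and Fcer1g were no longer called, whereas Hmox1 was. Quantile normalization moved the median difference of all probe sets on the diet from 0.06 to -0.01. The 4 mice per group leave wide intervals for the variable genes Saa1, Saa2 and Orm2.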
